A study of Mus musculus with 24 samples.

Results

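Liver RNA was compared between mice that lack Prxl2a and wildtype mice, using the 6 liver libraries of a set of 24 that also covers inguinal fat, brown fat and brain. The wildtype (WT) group holds 3 liver libraries and the Prxl2a knockout (KO) group holds 3. Per the labels all mice were female and 12 weeks old, were fed normally, and had their blood flushed out with PBS before the tissue was frozen. The design text gives 3 mice per group, so a mouse may have given several tissues. The sources used here do not give how the knockout allele was made, whether it acts in every cell, or the strain background of each genotype. Nothing states how far the mice are independent (litters, cages), so p-values measure the spread between these libraries. Of 19015 genes in the table, 12331 passed a filter on low counts in liver and were tested.

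Prxl2a encodes a peroxiredoxin-like protein, one of a small family with a thioredoxin-like fold. Peroxiredoxins reduce peroxides with electrons that come from NADPH by way of thioredoxin. The liver is mostly hepatocytes, which make plasma proteins, cholesterol and bile acids, store glycogen and lipid, and fold a large load of secreted protein in the endoplasmic reticulum (ER). Bile duct cells (cholangiocytes), stellate cells, endothelium and Kupffer cells make up most of the rest. In mice, many liver enzymes differ between the sexes because males and females secrete growth hormone in different patterns.

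The liver libraries held 17034043 to 18257788 counts. Levels are given as CPM, a gene's counts scaled to the library's total over the tested genes, as adjusted by TMM scaling. Differences are given as log2 fold changes, KO minus WT, with their standard error (SE). Pearson correlations of log2 CPM across genes were 0.985 to 0.989 between libraries of a group and 0.974 to 0.982 between groups, and no library stood apart. The hepatocyte markers ran high in every library: Alb, serum albumin, was at 101000 to 131000 CPM in WT and at 103000 to 126000 CPM in KO. All 12 hepatocyte markers were tested, and 0 passed, with log2 fold changes from -0.12 (Cps1, the entry enzyme of the urea cycle) to 0.23 (Tat, tyrosine aminotransferase).

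Prxl2a (GRCm38.p6 chromosome 14, 40993735 to 41013833) was compared first, as the check of the labels. It stood at 88.7, 77.0 and 69.9 CPM in the WT libraries and at 1.65, 0.919 and 2.09 CPM in the KO libraries. The groups did not overlap, and KO kept 1.98% of the WT mean. The log2 fold change was -5.65 (SE 0.21, edgeR adjusted p = 1.08e-05, n = 3 per group). Of its paralogues, Prxl2b rose by 0.79 (SE 0.13, edgeR adjusted p = 0.0241), from 5.41 to 5.52 CPM in WT to 8.54, 10.2 and 9.61 CPM in KO. Prxl2c stood at 64.2 to 67.7 CPM in WT and 53.3 to 60.7 CPM in KO and did not pass (log2 fold change -0.20, edgeR adjusted p = 0.254).

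A gene was called changed at an adjusted p under 0.05 in edgeR. By that rule 137 genes were called, which is 1.11% of those tested: 71 rose (0.576%) and 66 fell (0.535%). Every KO library lay on 1 side of every WT library in 21.6% of genes, above them in 10.6% and below in 11%. The median log2 fold change of all tested genes was -0.004. At least a 2-fold change was found in 85 of the called genes. The counts depended on single libraries: leaving out WT replicate 1, 2 or 3 gave 78, 58 or 85 called genes, and leaving out KO replicate 1 gave 87. In all 6 such fits 50 of the 137 were called again, 22 of them with a plain gene symbol, and 21 were called in none. Of the called genes named by the rule, Slco1a1, Plin4, Gmppb, Lrg1, Pck2, Ntrk2, Ifi27l2b and Col1a1 were called in 2 of the 6 fits, and Abcc4, Cbr1, Cyp2c67, Hsd3b5, Nr1d2, Plac9b, Ppp1r3c, Prxl2b, Saa4 and Ugt2b35 in 1. Epcam, Gldn and Rspo1 were called in none. Of those named outside it, Tmem267, Wdfy1, Sftpd and H3c15 lost their call in at least 1 fit. The fit of all 24 libraries called 98 genes in liver, 63 of the 137 among them. DESeq2 called 378 genes. Scaling by library size alone gave 59 rises and 82 falls, and TPM with a pseudocount of 1 gave 44 rises and 60 falls, while the median of all genes moved to -0.06 and -0.08. The naming rule and the way genes were grouped are given with the processing.

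**Figure D1:**
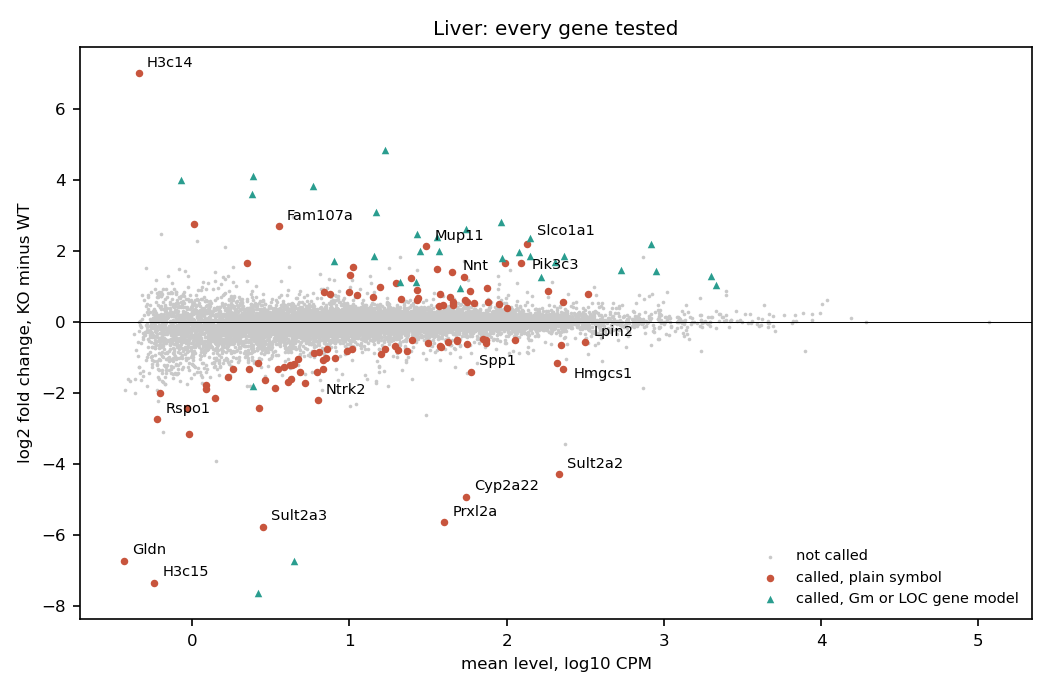
Log2 fold change in liver (KO minus WT, vertical axis) against the mean level (log10 CPM, horizontal axis) for the 12331 genes tested. Red circles are called genes with a plain symbol, green triangles are called gene models named only by a Gm or LOC number, and grey points were not called. Prxl2a, Cyp2a22 and Sult2a2 lie far below the other genes of their level, and most triangles lie above 0.

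Among the 42 rises with a plain symbol, the largest at a mean of at least 2 CPM with no overlap were led by Fam107a, an actin-associated protein, at 2.71 (SE 0.38), from 0.671 to 1.34 CPM in WT to 3.90 to 9.14 CPM in KO, and its call needed WT replicates 1 and 2. Slco1a1, a hepatocyte organic anion uptake carrier, stood at 38.5, 26.5 and 78.0 CPM in WT and 234, 304 and 125 CPM in KO. It rose by 2.22 (SE 0.42, edgeR adjusted p = 0.0468), with KO replicate 3 nearest to WT, and its call needed WT replicates 1 and 2 and KO replicates 1 and 2. Pik3c3, the class III phosphatidylinositol 3-kinase of endosomes and autophagy, stood at 57.0, 72.0 and 49.5 CPM in WT and 169, 185 and 212 CPM in KO. It rose by 1.66 (SE 0.15, edgeR adjusted p = 0.000801) and was called in all 6 fits that left out a library. Its complex partners did not pass: Becn1 had 0.16 (SE 0.07), Pik3r4 -0.06 (SE 0.10), Uvrag 0.04 (SE 0.10) and Atg14 -0.33 (SE 0.11).

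Nnt, the mitochondrial transhydrogenase that makes NADPH from NADH, had the smallest p-value among the rises with a plain symbol. It stood at 49.1, 42.7 and 48.7 CPM in WT and at 152, 150 and 141 CPM in KO, a 3.15-fold difference, and the groups lay far apart with little spread inside either. It rose by 1.66 (SE 0.09, edgeR adjusted p = 5.08e-05). Nnt is known to carry a deletion in the C57BL/6J strain, and since strain is not given, genotype and strain background cannot be told apart. Camk2b, a calcium-dependent kinase, rose by 1.57 (SE 0.21) and Carmil1, a regulator of actin capping, by 1.33 (SE 0.15). Both passed in all 6 fits that left out a library, as did Arrdc2, an arrestin-domain protein, which rose by 1.11 (SE 0.12). Cnbd2 rose by 1.28 (SE 0.18), a call that was lost when WT replicate 2 was left out. Wnk4, a kinase that controls ion transport, rose by 1.66 (SE 0.27) from 0.693 to 1.34 CPM in WT, and was called in only 1 of the 6.

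**Figure D2:**
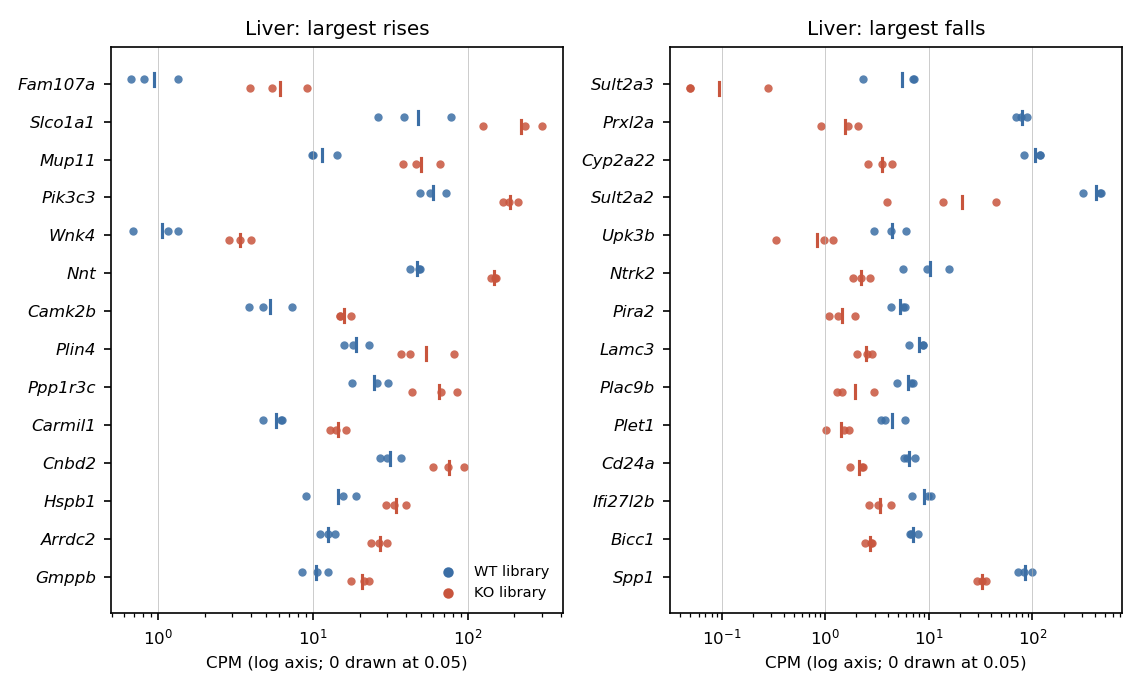
CPM in each liver library (log axis, values of 0 drawn at 0.05) for the 14 largest rises and the 14 largest falls under the naming rule. Blue points are WT libraries, red points are KO libraries and vertical ticks are group means. Nnt, Pik3c3, Cyp2a22 and Prxl2a show wide gaps between groups, while Slco1a1 and Sult2a2 vary several-fold within KO.

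The falls included genes of several kinds. Cd24a, a surface glycoprotein of epithelial progenitors and blood cells, fell by 1.61 (SE 0.19), and Bicc1, an RNA-binding protein, by 1.4 (SE 0.16), and both passed in all 6 fits that left out a library. Lamc3, a laminin chain, stood at 6.41, 8.88 and 8.73 CPM in WT and 2.51, 2.82 and 2.03 CPM in KO and fell by 1.71 (SE 0.19, edgeR adjusted p = 0.00419). Upk3b, a mesothelial surface protein, fell by 2.41 (SE 0.41) from 2.97 to 6.09 CPM in WT, and was called in 1 of the 6. Plet1 fell by 1.63 (SE 0.28) and was called in none. Pira2 fell by 1.87 (SE 0.25), Plac9b by 1.70 (SE 0.30) and Ifi27l2b by 1.42 (SE 0.22). Each of these 3 has close relatives in the genome, between which the authors' counting could divide reads, so their values are uncertain.

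Among enzymes of steroid and drug metabolism, single genes fell while the list medians were near 0. Cyp2a22, a liver cytochrome P450, stood at 118, 118 and 82.9 CPM in WT and at 4.39, 2.59 and 3.56 CPM in KO, and fell by 4.92 (SE 0.21, edgeR adjusted p = 1.59e-05). Its relatives did not pass: Cyp2a5 had -0.14 (SE 0.19), Cyp2a4 0.04 (SE 0.13) and Cyp2a12 0.07 (SE 0.11). Sult2a2, a sulfotransferase for bile acids and steroids, stood at 452, 464 and 310 CPM in WT and 13.8, 3.91 and 45.0 CPM in KO. It fell by 4.29 (SE 0.69, edgeR adjusted p = 0.0256), and the KO libraries ranged widely while staying below WT. Its call was lost when WT replicate 1, WT replicate 2 or KO replicate 1 was left out.

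Sult2a3 fell by 5.77 (SE 0.78, edgeR adjusted p = 0.0111), from 7.17, 7.07 and 2.33 CPM to 0, 0 and 0.283 CPM. Sult2a1 went from 464, 518 and 317 CPM to 20.5, 5.80 and 92.6 CPM without passing (-3.45, SE 0.78, edgeR adjusted p = 0.0858), and Sult2a8 had -0.04 (SE 0.16). The KO libraries kept the order of Sult2a2 in Sult2a1, with replicate 3 highest and replicate 2 lowest. The Cyp2a and Sult2a genes lie in clusters of similar copies on chromosome 7, so reads shared between copies make each copy's value uncertain. Over whole lists, 1 of 41 tested P450 genes of families 1 to 3 rose (Cyp2c67, by 0.58) and 1 fell (Cyp2a22), with a median of 0.07. Of 50 conjugation enzymes, 0 rose and 2 fell, Sult2a2 and Ugt2b35, a glucuronosyltransferase, by 0.49 (SE 0.09), with a median of 0.035.

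Genes known for male-biased liver expression under growth hormone control had mostly higher values in these female KO livers. Of 31 tested, 3 rose and 0 fell, 23 had higher values and 8 lower, and the median was 0.55, against -0.004 for all genes. The 3 were Slco1a1, Mup11, a major urinary protein, and Hsd3b5, a steroid dehydrogenase. Mup11 stood at 14.3, 9.91 and 9.96 CPM in WT and 46.5, 38.0 and 66.1 CPM in KO and rose by 2.14 (SE 0.22, edgeR adjusted p = 0.00244). Hsd3b5 stood near the detection limit, at 0.231 to 0.310 CPM in WT and 2.73, 1.90 and 0.791 CPM in KO, and rose by 2.77 (SE 0.53, edgeR adjusted p = 0.0487). KO replicate 3 was nearest to WT for Hsd3b5, as for Slco1a1, but farthest from WT for Mup11.

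In 12 of the 31 the KO libraries all lay above WT, and in 3 below, beside 10.6% and 11% of all genes. Values that did not pass lay on both sides of 0. Cib3 was lower, at 0.867, 5.31 and 1.80 CPM in WT and 0.170 to 0.172 CPM in KO (-3.93, SE 0.80, edgeR adjusted p = 0.0603), and Serpina1e, an alpha-1 antitrypsin copy, had 1.83 (SE 0.46), both chosen after their values were seen. The median was 0.35 without KO replicate 1, and 0.23 over the 28 members tested on log2(TPM + 1). Mup genes are near-identical copies on chromosome 4, and their values are uncertain: Mup20 had -0.38 (SE 0.15) and Mup18 0.01 (SE 0.45).

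The female-biased list moved less evenly. Of 38 tested, 0 rose and 2 fell, Sult2a2 and Ntrk2, a neurotrophin receptor, with 16 values higher, 22 lower and a median of -0.11. In 9 the KO libraries lay below every WT library, and in 2 above, beside 11% and 10.6% of all genes. Ntrk2 stood at 15.8, 9.60 and 5.59 CPM in WT and 2.68, 1.84 and 2.20 CPM in KO and fell by 2.20 (SE 0.36, edgeR adjusted p = 0.0288). Its call needed WT replicate 2 and all 3 KO libraries. The WT libraries were the more spread, and the lowest of them was still above every KO library. Leaving out WT replicate 1 gave a median of -0.04, and leaving out WT replicate 2 gave -0.24. Of the growth hormone and IGF axis, 0 of 19 passed, and Igfals, the carrier subunit of circulating IGF, had 0.34 (SE 0.08).

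Cholesterol synthesis genes had lower values in KO. This pathway builds sterols from acetyl-CoA by way of mevalonate. Of 28 members tested, 0 rose and 3 fell, and 25 values were lower and 3 higher, with a median of -0.52. In 10 the KO libraries lay below every WT library, and in 0 above, beside 11% and 10.6% of all genes. Hmgcs1, which makes HMG-CoA at the start of the pathway, stood at 286, 423 and 270 CPM in WT and 129, 107 and 153 CPM in KO, and fell by 1.33 (SE 0.19, edgeR adjusted p = 0.0133). Msmo1, a sterol methyl oxidase, stood at 297, 335 and 236 CPM in WT and 134, 96.3 and 159 CPM in KO, and fell by 1.16 (SE 0.19, edgeR adjusted p = 0.0267).

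Hsd17b7, a sterol ketoreductase, changed least of the 3 but with the least spread, from 85.9, 89.2 and 91.5 CPM to 60.3, 55.5 and 61.1 CPM, a fall of 0.59 (SE 0.08, edgeR adjusted p = 0.00783). The regulator Srebf2 had 0.05 (SE 0.11). WT replicate 2 was the highest library for 18 of the 28 members and KO replicate 2 the lowest for 23. Without them in turn, the median was -0.42 and -0.39. Hmgcs1 was not called without KO replicate 1, and Msmo1 without that library, WT replicate 1 or WT replicate 2.

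Hmgcs1 and Nnt are neighbours on chromosome 13 (GRCm38.p6), where Nnt spans 119335527 to 119409257 and Hmgcs1 119690351 to 119708260, a gap of 0.281 Mb. Of 7 other genes tested within 1 Mb of Nnt, 2 were called, Hmgcs1 and Tmem267. Tmem267, a membrane protein 0.0788 Mb away, stood at 8.67, 11.6 and 12.3 CPM in WT and 4.44, 5.46 and 6.33 CPM in KO, and fell by 1.0 (SE 0.18, edgeR adjusted p = 0.0411). Paip1, between Nnt and Tmem267, averaged 59.5 CPM in WT and 58.9 CPM in KO. These neighbours were looked up after the values were seen.

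Of 28 genes of fatty acid and triglyceride synthesis, 0 rose and 1 fell, with 9 values higher, 19 lower and a median of -0.24. The fall was that of Lpin2, a phosphatidate phosphatase, from 341, 411 and 375 CPM to 256, 234 and 277 CPM (-0.55, SE 0.10, edgeR adjusted p = 0.0474), and it was called in none of the 6 fits that left out a library. Scd1, the stearoyl-CoA desaturase, stood at 12700, 9490 and 7920 CPM in WT and 9730, 3960 and 3550 CPM in KO and did not pass (edgeR adjusted p = 0.33). KO replicate 1 lay within the WT range for it, and the list median was -0.50 without that library and -0.10 without WT replicate 1.

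Of lipid droplet and glycogen genes, Plin5, Plin4 and Ppp1r3c rose. Plin4 (56100587 to 56109948) and Plin5 (56111597 to 56117606) lie side by side on chromosome 17 (GRCm38.p6). Lrg1, an acute phase gene that also rose, lies close by at 56119678 to 56121946. These positions were looked up after the values were seen. Whether the rises of Plin4, Plin5 and Lrg1 are independent of each other was not tested. Plin5, a droplet coat protein of oxidative tissues, stood at 49.4, 44.2 and 58.4 CPM in WT and 105, 104 and 88.3 CPM in KO, and rose by 0.97 (SE 0.12, edgeR adjusted p = 0.00586). Plin4 stood at 18.2, 15.8 and 23.1 CPM in WT and 42.1, 81.5 and 37.0 CPM in KO, and rose by 1.5 (SE 0.29, edgeR adjusted p = 0.0489), with KO replicate 2 apart from the other KO libraries. Plin2, the main droplet protein of hepatocytes, had -0.11 (SE 0.12) and Plin3 0.20 (SE 0.13). Ppp1r3c, which targets protein phosphatase 1 to glycogen, rose by 1.4 (SE 0.25, edgeR adjusted p = 0.0422), from 18 to 30.7 CPM in WT to 85.6, 67.3 and 43.6 CPM in KO.

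Of 44 genes of fatty acid oxidation and PPAR-alpha control, Plin5 alone was called, with 30 values higher, 14 lower and a median of 0.18. KO replicate 2 was the highest library for 24 of them, and the median was 0.08 without it and 0.07 on log2(TPM + 1). Cd36, a fatty acid uptake receptor counted in this and the female-biased list, had -1.44 (SE 0.28, edgeR adjusted p = 0.0511). Of 24 genes of gluconeogenesis and glycogen, 1 rose (Ppp1r3c) and 1 fell, with a median of -0.009. The fall was that of Pck2, the mitochondrial PEP carboxykinase, by 1.22 (SE 0.18, edgeR adjusted p = 0.0162), and Pck2 was also the 1 call among 23 integrated stress response genes.

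ER chaperones and unfolded protein response genes had higher values in KO, and none passed. This response raises chaperones such as BiP (Hspa5) when unfolded protein builds up in the ER. Of 26 members tested, 0 were called by edgeR, 18 were at an unadjusted p under 0.05, and 25 values were higher and 1 lower, with a median of 0.50. DESeq2 called 10, all higher, and limma-voom 0. In 20 of the 26 the KO libraries lay above every WT library, beside 10.6% of all genes. Hspa5 stood at 560, 782 and 906 CPM in WT and 1240, 1690 and 1090 CPM in KO (0.84, SE 0.21, edgeR adjusted p = 0.103). Sdf2l1, a partner of Hspa5, stood at 6.99, 8.15 and 12.5 CPM in WT and 23.1, 39.0 and 17.9 CPM in KO (1.53, SE 0.30, edgeR adjusted p = 0.0552). Creld2, a secreted ER protein, stood at 13.9, 24.1 and 37.0 CPM in WT and 70.1, 125 and 52.7 CPM in KO (1.73, SE 0.38, edgeR adjusted p = 0.0788).

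The spread between libraries ran alike through the members. KO replicate 2 was highest for 21 of the 26 and WT replicate 1 lowest for 18. Leaving out KO replicate 2 lowered the median to 0.34 and leaving out WT replicate 1 to 0.41, while leaving out WT replicate 3 raised it to 0.66. Sensors and regulators, singled out after their values were seen, lay on both sides of 0: Xbp1 had 0.05 (SE 0.16), Atf6 0.12 (SE 0.07), Ern1 -0.27 (SE 0.13) and Eif2ak3 0.28 (SE 0.26). In the other tissues the same list had medians of 0.11 in inguinal fat, 0.07 in brown fat and 0.11 in brain, and whether they differ from liver was not tested.

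The windows upstream of 3 members are shown because they hold the ER stress response element, the sequence through which this response is known to act. Its letters were searched as CCAAT, then any 9 bases, then CCACG, on both strands in the 250 bases before each gene's start (RefSeq, GRCm38.p6). A member was counted if any of its windows held the match, which was so for 9 of the 23 members matched (39.1%). Of all 32851 windows, counted singly, 0.113% held it, so these shares are not on the same footing. Capitals mark the match. Hspa5 is at chr2:34771840-34772089, Creld2 at chr15:88819396-88819645 and Syvn1, an ER ubiquitin ligase, at chr19:6046326-6046575, all on the + strand.
Hspa5: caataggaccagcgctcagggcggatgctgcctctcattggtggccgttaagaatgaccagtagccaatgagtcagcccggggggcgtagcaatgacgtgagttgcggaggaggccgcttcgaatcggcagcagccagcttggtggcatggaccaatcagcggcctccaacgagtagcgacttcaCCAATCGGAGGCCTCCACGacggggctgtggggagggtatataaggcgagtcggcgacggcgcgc
Creld2: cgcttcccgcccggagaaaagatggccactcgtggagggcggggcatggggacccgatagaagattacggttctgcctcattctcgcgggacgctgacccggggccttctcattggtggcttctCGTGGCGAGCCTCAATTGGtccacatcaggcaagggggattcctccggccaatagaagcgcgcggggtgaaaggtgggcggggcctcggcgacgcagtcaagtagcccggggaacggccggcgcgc
Syvn1: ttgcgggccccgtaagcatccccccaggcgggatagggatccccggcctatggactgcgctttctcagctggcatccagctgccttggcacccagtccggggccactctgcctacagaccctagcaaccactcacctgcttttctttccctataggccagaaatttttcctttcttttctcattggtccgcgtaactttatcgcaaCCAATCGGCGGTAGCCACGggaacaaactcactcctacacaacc

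The match lay 46 bases before the gene start in Hspa5 and 25 bases before it in Syvn1, and in Creld2 it was on the opposite strand, 107 bases before the start. The 9 members with the match are among the 20 of 26 whose KO libraries lay above every WT library, so members without it lay above too. They are Calr, Canx, Creld2, Derl3, Dnajc3, Hsp90b1, Hspa5, Pdia6 and Syvn1, with log2 fold changes from 0.27 to 2.12. In all, 5 patterns were searched in 4 lists after the values were seen. List shares again count genes with a match in any window, while the shares of all windows count single windows. Small gaps between the list and window shares therefore cannot be read. For the sterol regulatory element, CACCCCAC, the share was 10% of 20 cholesterol genes, 13% of 23 ER genes and 2.58% of all windows. The heat shock element, GAA, any 2 bases, TTC, any 2 bases, GAA, was in 2 of 20 heat shock genes and 0.466% of all windows, and the E-box, CACGTG, in 28.6% of clock, 25% of cholesterol, 17.4% of ER and 15% of heat shock genes and 6.02% of all windows.

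Gmppb, which makes the GDP-mannose used for glycosylation, stood at 8.50, 10.6 and 12.5 CPM in WT and 21.4, 23.2 and 17.7 CPM in KO, and rose by 0.98 (SE 0.16, edgeR adjusted p = 0.0241). It was called in 2 of the 6 fits that left out a library.

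Cytosolic heat shock chaperones also had higher values. Of 26 tested, 1 rose and 0 fell, with 23 values higher, 3 lower and a median of 0.28, and in 14 the KO libraries lay above every WT library, beside 10.6% of all genes. On log2(TPM + 1) the median was 0.18, and 0 members were called there or in the fit of all 24 libraries. Hspb1, a small heat shock protein, stood at 9.02, 19.1 and 15.7 CPM in WT and 29.8, 33.5 and 40.1 CPM in KO and rose by 1.24 (SE 0.23, edgeR adjusted p = 0.0475). It was not called without WT replicate 3 or without any 1 of the KO libraries. Hsp90aa1 stood at 208, 297 and 327 CPM in WT and 501, 435 and 468 CPM in KO (0.75, SE 0.16, edgeR adjusted p = 0.0685), and Hsf1, the factor that drives these genes, had 0.04 (SE 0.11). WT replicate 1 was the lowest library for 11 of the 26. The same list had a median of 0.52 in brown fat, with 24 of 26 values higher, 0.05 in inguinal fat and -0.01 in brain.

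**Figure D3:**
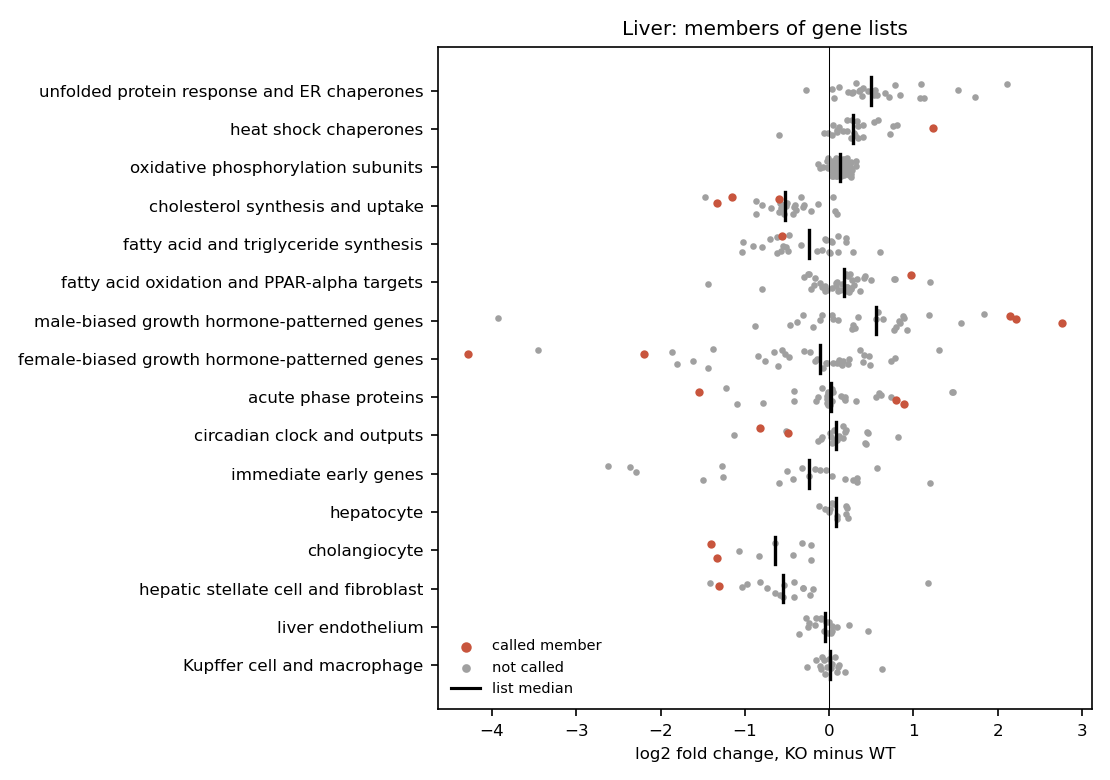
Log2 fold change in liver (KO minus WT) of each tested member of 16 gene lists, picked for display after the values were seen. Red points are called members, grey points were not called and black bars are list medians. The ER chaperone points lie almost all to the right of 0, and the cholesterol, cholangiocyte and stellate points mostly to the left.

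In the 2 redox lists, which relate to what Prxl2a encodes, 4.88% and 5.56% of tested members were called, beside 1.11% of all genes. These shares are 2 genes in each list. Shares in the other lists ran from 0, as in bile acid synthesis, to 22.2% in the cholangiocyte list, so the redox lists did not stand apart. Of 41 peroxiredoxins, thioredoxins and NADPH makers, 2 rose (Nnt and Prxl2b) and 0 fell, with a median of -0.009. The peroxiredoxins Prdx1 through Prdx6, singled out after their values were seen, ran from -0.21 (Prdx3) to 0.23 (Prdx4), and none passed. Of 36 NRF2 targets and glutathione enzymes, Cbr1, a carbonyl reductase, rose by 0.52 (SE 0.08) and Abcc4, an export pump, fell by 1.08 (SE 0.20), with a median of 0.03. Of 77 oxidative phosphorylation subunits, 0 passed, with 70 values higher and a median of 0.13. With TPM, which scales by transcript length, 46 of 77 were higher, and the median was 0.02 where that of all genes was -0.08. KO replicate 3 was highest for 55 of the 77, and the median was 0.08 without it and 0.07 without WT replicate 3.

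Among clock genes, Nr1d1 and Nr1d2, which encode the REV-ERB repressors, fell, 2 of 25 tested. Nr1d2 stood at 90.5, 86.1 and 83.9 CPM in WT and 60.3, 65.2 and 59.9 CPM in KO (-0.49, SE 0.08, edgeR adjusted p = 0.0208). Nr1d1 stood at 14.6, 11.7 and 10.8 CPM in WT and 7.86, 6.09 and 7.07 CPM in KO (-0.82, SE 0.15, edgeR adjusted p = 0.0467), and was called in none of the 6 fits that left out a library. Arntl, a core activator, had 0.82 (SE 0.31) and did not pass. The sources used here do not state the time of day of collection. Immediate early genes were highest in WT replicate 3 for 10 of 21, such as Egr1 at 132 CPM there and 12.0 and 15.3 CPM in the other WT libraries. None of the 21 passed, with a median of -0.24 that became -0.15 without that library.

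Of 32 acute phase proteins, 2 rose and 1 fell, with a median of 0.02. Saa4, a constitutive serum amyloid A, rose by 0.79 (SE 0.12), from 254, 211 and 263 CPM to 364, 459 and 438 CPM. Lrg1, a secreted glycoprotein, rose by 0.89 (SE 0.17), with KO replicate 2 highest at 311 CPM. Lrg1 lies close to Plin4 and Plin5, which also rose. Il1rn, the interleukin-1 receptor antagonist, fell by 1.54 (SE 0.29), and was called in none of the 6 fits that left out a library.

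Bile duct markers had lower values in KO. Of 12 cholangiocyte markers, 9 passed the filter, and the other 3 were too low to test. Of the 9, 2 fell and 0 rose, and all 9 values were lower, with a median of -0.64. Spp1, osteopontin, stood at 72.8, 100 and 82.9 CPM in WT and 32.4, 35.4 and 29.4 CPM in KO and fell by 1.4 (SE 0.13, edgeR adjusted p = 0.00106). Epcam, an epithelial adhesion protein, stood at 3.47, 3.10 and 3.38 CPM in WT and 0.911, 1.49 and 1.53 CPM in KO and fell by 1.33 (SE 0.24, edgeR adjusted p = 0.041). The keratin Krt19 had -0.21 (SE 0.32) and Sox9 -0.32 (SE 0.25). Summed TPM of the list was 106 to 150 in WT and 47.6 to 52.6 in KO, most of it Spp1. Fewer cells of a type and less RNA per cell cannot be told apart in bulk tissue.

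Stellate cell and fibroblast markers had 1 fall and 0 rises of 17 tested, 16 lower values and a median of -0.55. Col1a1, a fibrillar collagen chain, stood at 7.51, 12.5 and 8.91 CPM in WT and 3.19, 4.94 and 3.56 CPM in KO and fell by 1.31 (SE 0.23, edgeR adjusted p = 0.0403), a call lost without WT replicate 2, WT replicate 3, KO replicate 1 or KO replicate 3. Col3a1 had -1.03 (SE 0.25) and Pdgfrb, a receptor of mesenchymal cells, -0.98 (SE 0.28), and neither passed. WT replicate 2 was highest for 14 of the 17 and KO replicate 1 lowest for 15. Summed TPM overlapped between the groups, at 360 to 529 in WT and 204 to 395 in KO. Mean log2 CPM of the markers did not overlap, at 3.91 to 4.33 in WT and 3.01 to 3.85 in KO. The median log2 fold change was -0.37 with KO replicate 1 left out and -0.89 with KO replicate 2 left out. The same list also had lower medians elsewhere, at -0.73 in inguinal fat, -0.46 in brown fat and -0.09 in brain. Whether the liver differs from these tissues for the list as a whole was not tested.

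**Figure D4:**
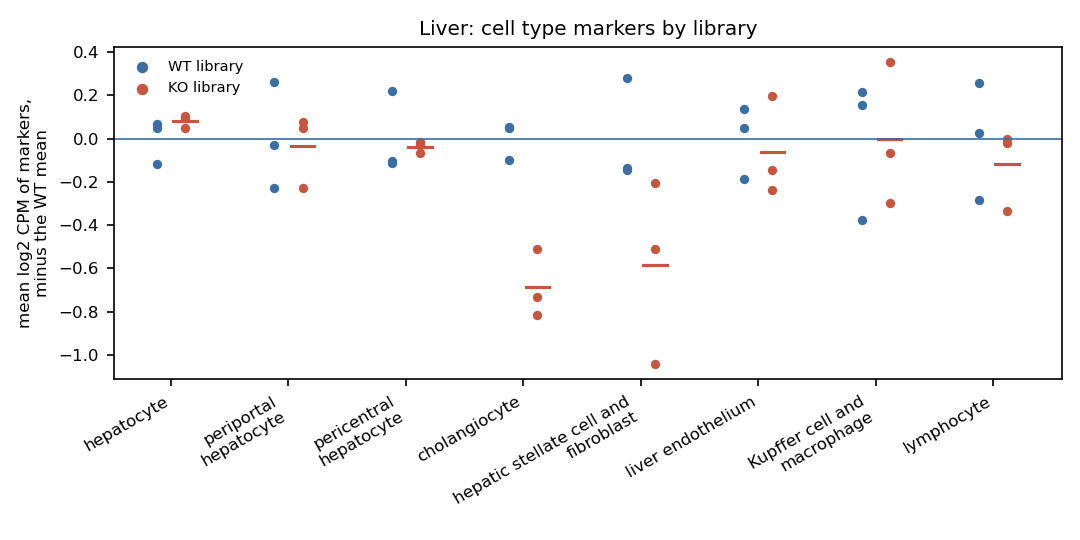
Mean log2 CPM of the tested markers of 8 cell types in each liver library, minus the WT mean, which is the horizontal line. Blue points are WT libraries, red points are KO libraries and red bars are KO means. The 3 KO libraries lie below the WT libraries for cholangiocyte markers, by 0.69 on average, and for stellate cell and fibroblast markers, by 0.59. The hepatocyte, endothelial and Kupffer cell points of the groups overlap.

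Rspo1, a Wnt enhancer, stood at 0.925, 1.39 and 0.815 CPM in WT and 0.114, 0.230 and 0.113 CPM in KO and fell by 2.74 (SE 0.46, edgeR adjusted p = 0.0307). Gldn, a matrix protein, had 10 to 19 counts in the WT libraries and 0 in every KO library. It was at least 4.29-fold lower in KO, against a floor of 3 counts per library (edgeR adjusted p = 0.0307). The part of changed cell numbers in these falls was not tested.

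Of 18 endothelial and 18 Kupffer cell and macrophage markers, 0 were called, with medians of -0.05 and 0.006, and 0 in either list had KO libraries apart from WT. Of 12 lymphocyte, 3 neutrophil, 6 red cell, 4 pancreas and gut and 3 neuron markers tested, 0 were called. Adipocyte markers stood apart in mean log2 CPM, at 3.85 to 3.98 in WT and 4.28 to 4.35 in KO, with overlapping summed TPM. Plin4 was the 1 call among the 5 tested, while Adipoq, Lep and Plin1 were too low to test. Red cell markers were highest in WT replicate 1 and KO replicate 1, with summed TPM of 1134 and 973 against 173 to 319 in the other libraries.

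Lists of bile acid synthesis, apolipoproteins, glycolysis, urea cycle and amino acid breakdown, one-carbon enzymes, complement and coagulation, interferon response, cell cycle, and iron, heme and copper handling had 0 called members each, with medians from -0.13 to 0.12. Cdkn1a, a cell cycle inhibitor, stood at 5.14, 5.88 and 16.5 CPM in WT and 23.0, 43.1 and 31.6 CPM in KO without passing (1.83, SE 0.41, edgeR adjusted p = 0.0812). Cyp8b1, the enzyme for cholic acid, had -0.88 (SE 0.30) and Sardh, sarcosine dehydrogenase, -0.64 (SE 0.18). Ifit3 and Oas1a, both interferon-induced, had -0.64 (SE 0.15) and -0.62 (SE 0.16).

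A large share of the calls were gene models known only by a Gm or LOC number. Of 375 tested entries without a plain symbol (Gm, LOC, Rik or accession-style names), 32 were called (8.53%), 29 of them higher. The called ones all had a Gm or LOC number. Among genes with a plain symbol, 105 of 11956 were called (0.878%). The 29 together made 3842 to 4672 CPM in WT and 10950 to 12330 CPM in KO. Of 24 tested entries with no row in the RefSeq gene table, 14 rose and 0 fell. Of the 29, values were also higher for 28 of 28 tested in inguinal fat, 27 of 28 in brown fat and 25 of 28 in brain. The sources used here do not state what these models encode, and no function is named for them.

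The histone genes H3c14 and H3c15, near-identical neighbours on chromosome 3, moved in opposite directions. H3c14 had 0 counts in every WT library and 15 to 18 in the KO libraries, at least 5.44-fold higher in KO (edgeR adjusted p = 0.0124). H3c15 had 15 to 29 counts in WT and 0 in every KO library, at least 6.69-fold lower in KO (edgeR adjusted p = 0.0242). Both floors are 3 counts per library. Reads could be divided between these copies by the counting, so the direction of each is uncertain. Entpd4b, which also has a near-identical copy, fell by 0.69 (SE 0.09, edgeR adjusted p = 0.00783). These genes were chosen after their values were seen.

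By position, chromosome 14 had 10 calls of 422 genes tested (2.37%), with Prxl2a, the targeted gene, counted among them. Chromosome 13 had 9 of 445 (2.02%), and the share of all genes was 1.11%. Of 5 other genes tested within 1 Mb of Prxl2a, Sftpd, a surfactant collectin 0.158 Mb away, fell by 1.99 (SE 0.36, edgeR adjusted p = 0.041), from 0.982 to 1.03 CPM in WT to 0.171 to 0.287 CPM in KO. Its neighbours Tspan14 (0.09, SE 0.10), Mat1a (-0.25, SE 0.15) and Mbl1 (0.36, SE 0.14) did not pass.

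Some liver calls were also made elsewhere. Of the 137, 15 were called in brown fat, which is 10.9% of the liver calls and 22.1% of the 68 there (0.54% of genes tested), all in the same direction. In brain 6 were called, 4.38% of the liver calls and 85.7% of the 7 there (0.0487% of genes tested). In inguinal fat 0 were, where edgeR called 0 genes of 14097. Prxl2a itself did not pass there (-4.58, edgeR adjusted p = 0.0912), so 0 calls do not show that the liver changes were absent. With plain symbols the shared calls were Pik3c3, Pck2, Ifi208, Tmem267, Wdfy1, Entpd4b and Prxl2a in brown fat, and Nnt, Wdfy1, Entpd4b and Prxl2a in brain. Wdfy1, an endosomal protein, rose in liver from 17.1, 17.1 and 15.3 CPM to 25.7, 28.4 and 23.7 CPM (0.65, SE 0.10, edgeR adjusted p = 0.0207), and had 1.23 in brown fat and 1.17 in brain. Nnt had log2 fold changes of 1.22 in inguinal fat, 0.51 in brown fat and 0.82 in brain. In that order of tissues, list medians were -0.24, 0.22 and -0.06 for cholesterol synthesis. They were -0.78, 0.10 and -0.02 for fatty acid and triglyceride synthesis, and -0.25, 0.17 and -0.12 for oxidative phosphorylation subunits. Cholangiocyte markers had -0.45, 0.14 and -0.10, with 8, 2 and 3 tested. Differences of list medians between tissues were not tested.

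The difference between the liver change and the mean change of the other tissues was tested in 1 fit of the 24 libraries. Of 16169 genes, 8 were called different (0.0495%), and 7 of these were called in liver, 5 with a plain symbol: Gldn, Rspo1, Lamc3, Hmgcs1 and Carmil1. Hmgcs1 had -1.33 in liver against -0.06 in inguinal fat, 0.28 in brown fat and -0.17 in brain, a difference of -1.35 (SE 0.22, edgeR adjusted p = 0.0149). Carmil1 had 1.33 in liver against 0.20, -0.21 and 0.28, a difference of 1.24 (SE 0.19, edgeR adjusted p = 0.00988). Many liver genes, such as Cyp2a22 and the Sult2a genes, were too low in the other tissues for this test to bear on them.

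**Figure D5:**
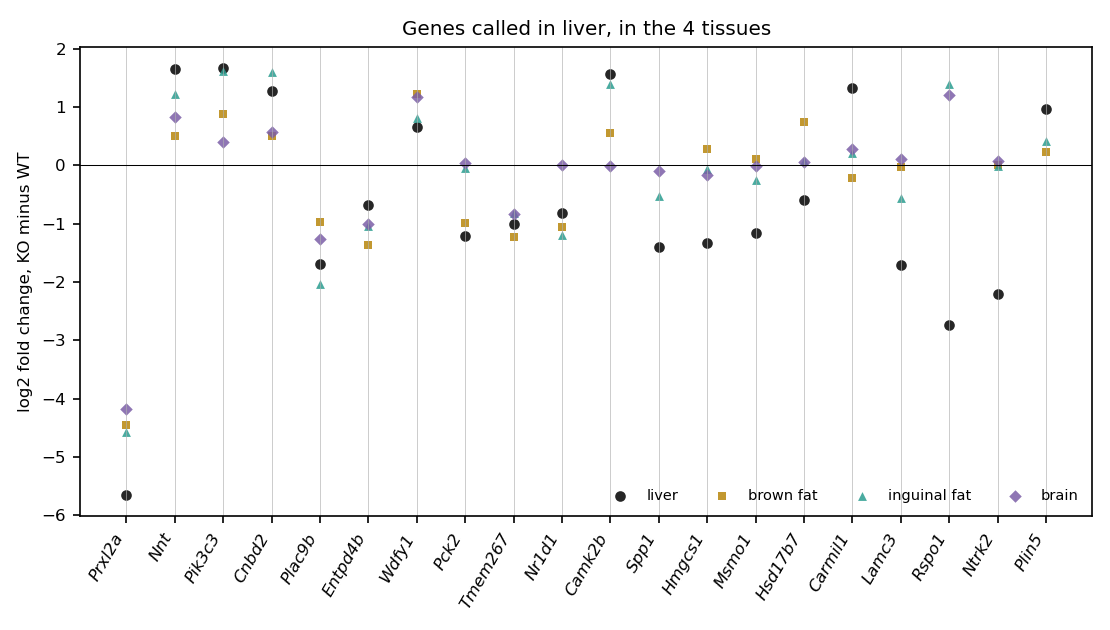
Log2 fold change (KO minus WT) of 20 genes called in liver, picked for display after the values were seen, in liver, brown fat, inguinal fat and brain. A missing point is a gene too low to test there. Prxl2a is far below 0 and Nnt above 0 in every tissue, while Hmgcs1, Lamc3 and Carmil1 lie away from 0 in liver and nearer to it elsewhere.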

How the data were processed

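RNA from 6 livers, extracted with a spin column kit and made into mRNA libraries per the labels, was sequenced by the authors. The submitters' processing notes name RSEM 1.3.1, Bowtie2 2.3.4.3, DESeq2 1.4.5 and GRCm38.p6, without saying what each did. Neither the annotation nor any filter is stated in the sources used here. Expected counts (estimated reads per gene) and TPM were deposited by the authors, per the file headers. A further 48 columns of per-sample values were not used.

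For testing, the expected counts were rounded to integers and analysed with edgeR 4.0.16 (R 4.3.3): TMM scaling, its default filter on low counts, the quasi-likelihood test and Benjamini-Hochberg adjustment, on the 6 liver libraries. The test against the other tissues used all 24 libraries. limma 3.58.1 and DESeq2 1.42.0 served as alternatives, beside other scalings, filters, a replicate block and leaving out each library. Of 19015 genes, 18958 matched the RefSeq table (GRCm38.p6) and 57 did not. On counts simulated for liver with 12331 genes, the test recovered 29 of 67 genes changed 1.5-fold, 52 of 67 changed 2-fold and 65 of 66 changed 4-fold, with 15 false calls among 12131 unchanged genes. Set beside the genes recovered, the false calls were a larger share of all calls than the 5% aimed at, in a single simulated set.

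The gene lists and members were chosen with earlier results of these data known. Named genes were Prxl2a and its paralogues, up to 14 rises and 14 falls by size (called, plain symbol, mean of at least 2 CPM, no overlap), up to 4 called members per list or up to 2 with the smallest p where none was called, up to 8 genes that differed from the other tissues, the 3 called genes with the highest WT level, and hepatocyte markers. Other named genes, the promoter patterns and the lists plotted were chosen after their values were seen. Some genes are not reported here.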

Additional observations from a re-analysis of the deposited data

Results flagged for a closer look

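The liver change differed from the mean change of the other 3 tissues for 5 genes with a plain symbol that were also called in liver, by a test of the difference itself in edgeR. The difference was -7.45 (SE 0.95, edgeR adjusted p = 0.00423) for Gldn, which was at 0 counts in every KO liver, so its size depends on the fit and is no bound. For Rspo1 it was -4.09 (edgeR adjusted p = 0.0138), at a level near 1 CPM in WT liver. For Lamc3 it was -1.55 (SE 0.25, edgeR adjusted p = 0.011), and for Hmgcs1 it was -1.35 (SE 0.22, edgeR adjusted p = 0.0149). Carmil1 was the 1 of these that rose in liver, with a difference of 1.24 (SE 0.19, edgeR adjusted p = 0.00988). Without WT replicate 2, the differences of Rspo1, Lamc3, Hmgcs1 and Carmil1 were no longer called. Without KO replicate 1 those of Rspo1, Lamc3 and Hmgcs1 were lost, without KO replicate 3 those of Rspo1 and Lamc3, and without KO replicate 2 that of Hmgcs1. limma-voom did not call those of Rspo1 and Lamc3, and the fit with the replicate number within genotype as a block did not call that of Hmgcs1.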

How the results depend on the processing

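No called liver gene reversed under any alternative that gave it a value. Of 137 calls (71 higher, 66 lower), the count became 218 (112 lower) with no filter, 378 (192 higher, 186 lower) with DESeq2, and 85 (43 higher, 42 lower) with a log2 fold change of at least 1 also required. The fit of all 24 libraries called 98 (51 higher, 47 lower), kept 63 of the 137, and had 0 calls in the cholangiocyte, clock, acute phase, heat shock and fatty acid oxidation lists. On log2(TPM + 1) limma-trend called 44 higher, on log2(TPM + 0.1) 45 higher, and with no filter on TPM 63 (31 higher, 32 lower). Leaving out 1 library gave 58 to 103 calls, 40 to 68 higher and 18 to 48 lower. Fewer samples enter those fits. Against the other tissues, 8 genes were called, 13 with limma-voom, and 5 to 15 with 1 library left out. The cause of the other shifts was not tested. A fit with the replicate number as a block called 228 genes (132 lower). Deviations of same-numbered WT and KO libraries correlated at 0.201, 0.034 and -0.072, and those of differently numbered ones at -0.235 to 0.215. So few libraries cannot decide whether the numbers pair the samples. With 3 libraries a group, a 1.5-fold change was missed more often than found in simulated counts, so a gene that did not pass is not shown to be unchanged.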
